A study of Mus musculus with 18 samples.

Results

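The change in gene expression between day 2 and day 4 of induced pluripotent stem cell (iPSC) formation was followed in bulk cultures of reprogrammable mouse embryonic fibroblasts (MEFs). It rests on 4 of the 18 microarrays of the series: day 2 and day 4 of cells with OKSM induction alone, and day 2 and day 4 of cells with OKSM induction plus ascorbic acid and a GSK3 inhibitor (OKSM+AGi). OKSM stands for the 4 reprogramming factors Oct4 (gene Pou5f1), Klf4, Sox2 and c-Myc. By the labels both arms received the induction and differed by the 2 added compounds. All cells were of the strain given as Black6-129X1/SvJ, with no sex or age on record here. Each arm and day had 1 array of a bulk culture, which mixes cells that reprogram with cells that do not. Days 6, 8, 10 and 12 of both arms served as reference, as did MEFs of the same kind without doxycycline (dox), which switches the factors on, granulocyte-macrophage progenitors (GMPs) and wild-type embryonic stem cells (ESCs). There were also 2 iPSC lines, 1 from fibroblasts given OKSM+AGi for 4 days and 1 from GMPs given it for 2 days. Each of these also had 1 array.

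A gene belonged to the comparison when its value on day 4 differed from that on day 2 by at least 1 log2, which is a doubling or a halving. The rule was applied within each arm to the deposited log2 values of 13865 genes with signal above a low limit. It found 568 genes (4.1% of those tested), in 6 classes and 1 gene with opposite changes. As the rule used the 4 arrays themselves, the values of day 2 and day 4 are given as a description. With 1 array per arm and day, the difference between the arms in this step could not be tested.

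Fibroblasts that receive OKSM first lose parts of their mesenchymal programme and gain epithelial features, a mesenchymal-to-epithelial transition, before endogenous pluripotency genes become active. Ascorbic acid is a cofactor of iron-dependent dioxygenases, which include TET enzymes, Jumonji histone demethylases and collagen prolyl hydroxylases. GSK3 marks beta-catenin for degradation, so its inhibitor stabilises beta-catenin and raises Wnt target genes.

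The labels were first set against marker genes. Col1a2, which encodes a fibrillar collagen chain, stood at 12.10 log2 in the uninduced MEFs and at 8.76 in ESCs. Nanog, a core pluripotency factor, stood at 6.09 in the MEFs and at 12.26 in ESCs. Klf4 was at 9.62 in uninduced MEFs and between 11.73 and 12.11 on the 4 arrays of days 2 and 4, so this factor was high in both arms from day 2. Pou5f1 stood at 6.80 in the MEFs and at no more than 7.35 on the 4 arrays, and Sox2 at 5.36 and between 5.41 and 5.86; whether their probes read the introduced copies is not given in the sources used here.

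In OKSM alone, 131 genes (0.945% of the 13865 tested) were at least 1 log2 higher on day 4 than on day 2, and 126 (0.909%) were at least 1 log2 lower. With AGi, 189 genes (1.36%) were higher and 255 (1.84%) were lower by that size. Both arms shared 49 genes higher (0.353%) and 83 genes lower (0.599%). The 49 shared genes made up 37.4% of the higher genes in OKSM and 25.9% of those in OKSM+AGi. The 83 shared genes made up 65.9% of the lower genes in OKSM and 32.6% of those in OKSM+AGi. Genes past the size in OKSM+AGi only numbered 139 higher (1% of those tested) and 172 lower (1.24%), against 82 higher (0.591%) and 42 lower (0.303%) in OKSM only. Across the 13865 genes the changes of the arms had a Pearson correlation of 0.588 and a Spearman correlation of 0.486; genes are not independent replicates, and both arms were sampled on the same days.

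**Figure D1:**
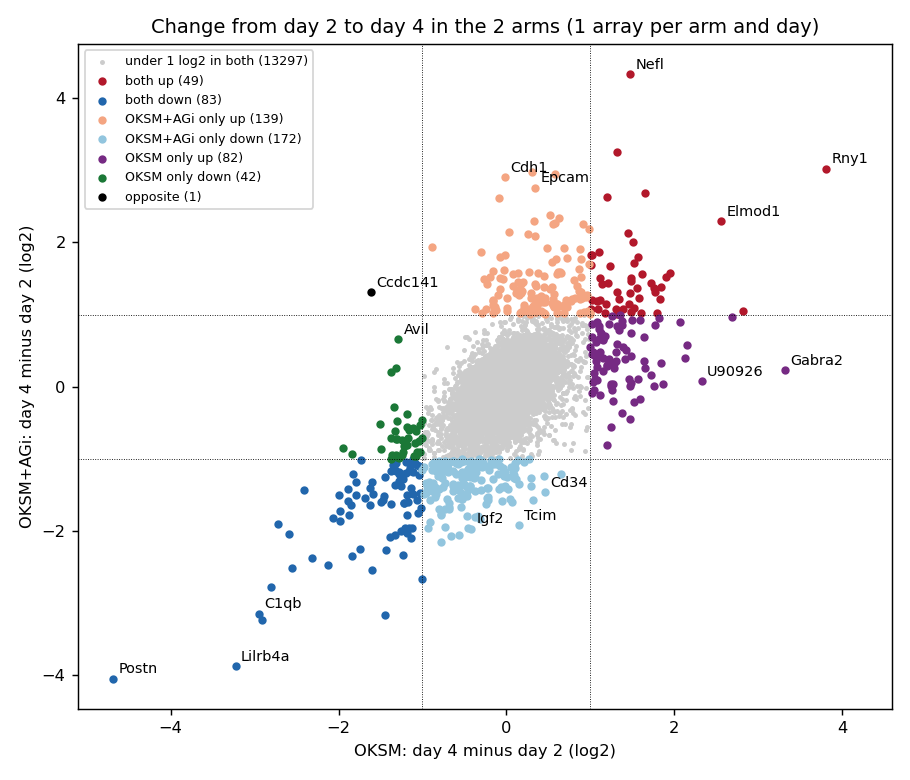
Change from day 2 to day 4 (log2) in OKSM on the horizontal axis and in OKSM+AGi on the vertical axis, 1 point per gene, 1 array per arm and day; dotted lines mark 1 log2. The 49 genes higher and 83 genes lower in both arms fill the upper right and lower left corners, and Ccdc141 stands alone in the upper left.

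Most genes of the single-arm classes leaned the same way in the other arm without reaching 1 log2. Of the 139 genes higher in OKSM+AGi only, 113 also had a positive change in OKSM, and 56 of them passed 0.5 log2 there. Of the 172 genes lower in OKSM+AGi only, 150 had a negative change in OKSM and 86 passed 0.5 log2. Of the 82 genes higher in OKSM only, 71 had a positive change with AGi and 32 passed 0.5 log2. Of the 42 genes lower in OKSM only, 39 had a negative change with AGi and 35 passed 0.5 log2. A shared sign was common in general: of all genes tested, only 33.2% had opposite signs in the arms. The arms differed in their change by at least 1 log2 for 65 of the 139, 59 of the 172, 33 of the 82 and 5 of the 42 genes, and for 240 of all tested genes.

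Members close to the threshold show how fine the border is. Sema3e was included in OKSM with a change of 1.002 and Mir1931 was outside with 0.998. Stat2 was included in OKSM+AGi with a change of -1.0001 and Colec12 was outside with -0.9975.

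A fit over both arms gave the only test of the step itself. limma, with arm and day as terms on the 12 time-course arrays, called 42 genes higher on day 4 than on day 2 (0.303% of those tested) and 55 lower (0.397%) at an adjusted p of 0.05. It uses the same arrays of days 2 and 4 as the rule, so its p-values are no independent support for membership of a class. The spread in this fit is how far the arms part from day to day, and the labels do not say whether each day had its own culture. The fit rested on single days: without day 8 it called 0 genes, with 1715 at an unadjusted p under 0.05 (1935 with all days), without day 6 it called 38, without day 10 it called 19, and without day 12 it called 162.

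Control probe sets moved in the same direction on these arrays. The 24 labelling controls, added to the RNA before amplification, were all higher on day 4 in both arms, by 0.51 ± 0.32 log2 in OKSM and 0.56 ± 0.32 in OKSM+AGi (mean ± SD over probe sets). The 18 hybridisation controls were also all higher, by 0.30 ± 0.13 and 0.22 ± 0.11. The 2 arrays of day 2 had the lowest mean labelling signal of all 18 arrays, 6.97 and 6.85 log2, against 7.08 to 7.71 elsewhere. The part of array handling in the changes below was not tested. The medians of the 4 arrays lay between 6.32 and 6.38.

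Genes lower on day 4 in both arms included matrix and myeloid genes. Postn encodes periostin, a matrix protein of fibroblasts. Its level was 10.70 on day 2 and 6.02 on day 4 in OKSM, and 9.27 and 5.23 in OKSM+AGi. Both day 4 values lay below both day 2 values, and Postn fell by 4.36 log2 over both arms (SE 0.55, limma, adjusted p = 0.025). On day 6 it stood at 6.92 and 5.81, and on day 8 at 10.38 in OKSM and 8.17 in OKSM+AGi. Uninduced MEFs had 12.30.

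limma, fitted over all genes tested, also called other genes of this class lower. Col1a2 was at 12.13 on day 2 and 10.90 on day 4 in OKSM, and at 12.02 and 9.69 in OKSM+AGi. It fell by 1.78 log2 over both arms (SE 0.24, adjusted p = 0.025). Crym, which encodes a thyroid hormone-binding crystallin, was at 10.85 and 8.73 in OKSM and at 10.44 and 7.96 in OKSM+AGi (limma, adjusted p = 0.023). In both genes the day 4 values lay below both day 2 values. Aspn, which encodes the matrix proteoglycan asporin, fell by 2.32 log2, Crabp2, a carrier of retinoic acid, by 2.08, and Gpc3, a cell-surface proteoglycan, by 1.92 (limma, adjusted p = 0.023, 0.023 and 0.022).

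Macrophage markers took 10 of the 83 places in this class. Of 28 macrophage markers on the list, 27 were measured and 20 were tested. In OKSM 15 of the 20 were at least 1 log2 lower on day 4, and in OKSM+AGi 10 were, all 10 of them in both arms, where 0.599% of all genes tested belong. The median change of the 20 was -1.45 in OKSM and -1.13 in OKSM+AGi, against -0.03 in each arm over all genes tested. limma called 1 of the 20, Fcgr3, an Fc receptor (adjusted p = 0.047).

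The complement gene C1qb was at 10.41 on day 2 and 7.46 on day 4 in OKSM, and at 10.05 and 6.91 in OKSM+AGi. Lyz2, which encodes the lysozyme of macrophages, was at 9.72 and 6.81, and at 9.89 and 6.66. Fcer1g, a signalling chain of Fc receptors, was at 9.40 and 6.84, and at 9.06 and 6.55. In each of the 3 genes both day 4 values lay below both day 2 values, with changes of -2.51 to -3.23 that did not pass the limma test (adjusted p = 0.076, 0.098 and 0.098). Csf1r, the receptor for the macrophage growth factor CSF1, was at 7.65 and 6.35 in OKSM, and at 7.04 and 6.31 in OKSM+AGi (limma, adjusted p = 0.082).

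The macrophage list was high again on days 8 to 12 in OKSM, while its typical gene stayed low with AGi. The summed linear signal of its 27 measured genes was 7782 on day 2 and 3447 on day 4 in OKSM, and 6955 and 3072 in OKSM+AGi. It stood at 6118 in the uninduced MEFs and at 30580.15 in GMPs, the myeloid progenitors. On day 6 it was 3764 and 3366. From day 8 to day 12 it lay between 7588 and 11147 in OKSM and between 4266 and 6524 in OKSM+AGi. The sum weighs the brightest genes most, such as Cd68, which stood at 11.77 log2 on day 12 with AGi. The median level of the 20 tested genes was 7.83 on day 2 and 6.38 on day 4 in OKSM, and between 7.66 and 8.29 on days 8 to 12. With AGi it was 7.67 on day 2, 6.43 on day 4 and between 6.57 and 6.63 on days 8 to 12. The scale has no zero, so no marker can be said to be absent; Csf1r stood at 7.83 in the uninduced MEFs and at 9.14 in GMPs. In bulk samples, fewer cells of a type and less RNA per cell cannot be told apart. The rule itself gives the other genes lower on day 4 the same direction as these markers. Whether the share of myeloid cells had a part in the change of those genes was not tested.

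To show the stretches in front of these myeloid genes, the 250 bases before the start of C1qc and Lyz2 are given as read from the RefSeq table of mouse build GRCm38.p6. Capitals mark a match to GAGGAAGT or AGGAAGT on either strand, letters that ETS-family factors such as the myeloid regulator PU.1 are known to bind. C1qc lies on the minus strand at chr4:136892915-136893164 and Lyz2 on the minus strand at chr10:117282273-117282522.
C1qc: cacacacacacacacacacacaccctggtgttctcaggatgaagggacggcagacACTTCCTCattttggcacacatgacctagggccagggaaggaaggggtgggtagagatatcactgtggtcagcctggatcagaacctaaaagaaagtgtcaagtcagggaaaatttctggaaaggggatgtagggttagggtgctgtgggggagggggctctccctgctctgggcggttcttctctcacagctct
Lyz2: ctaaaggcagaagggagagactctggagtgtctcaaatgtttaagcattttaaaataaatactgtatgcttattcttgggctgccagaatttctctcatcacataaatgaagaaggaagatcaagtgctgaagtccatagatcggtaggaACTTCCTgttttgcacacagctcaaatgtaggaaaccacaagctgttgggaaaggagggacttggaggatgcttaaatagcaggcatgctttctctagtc
The letters GAGGAAG, which overlap both motifs, occurred in 7 of the 16 macrophage-list genes with such a window (43.8%), against 12% of all 27025 genes of the table. AGGAAGT occurred in 4 of the 16 (25%), against 8.8%, the shorter GGAAGT in 6 (37.5%), against 22.2%, and the full GAGGAAGT in 1 (6.25%), against 2.79%. Among the 60 genes lower in both arms with a window, 9 held GAGGAAG (15%). The share was 14.3% in genes higher in both arms. It was 13.2% and 18.4% in genes higher and lower with AGi only, and 22.2% and 24.1% in those of OKSM only. In all 9 motifs were searched, chosen after the values were seen. The others were CACCTG, given below, and the letters CTTTGAT, found in 1 of the 16 genes (6.25%, against 3.72% of all genes of the table). The related letters CTTTGTT were found in 0 (against 5.77%). TGACTCA was in 1 (6.25%, against 5.16%) and its looser form TGANTCA in 3 (18.8%, against 7.82%). A match is no evidence that a factor was bound.

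Genes higher on day 4 in both arms included small RNAs and pluripotency-associated genes. Rny1, a small cytoplasmic RNA of Ro particles, was at 6.12 on day 2 and 9.93 on day 4 in OKSM, and at 7.10 and 10.12 in OKSM+AGi. Both day 4 values lay above both day 2 values, and it rose by 3.42 log2 (SE 0.28, limma, adjusted p = 0.019). It was at 9.97 and 9.87 on day 6, at 6.74 and 7.50 on day 8, and at 9.78 in uninduced MEFs, so the day 2 arrays were low against the MEFs. The other tested Y RNA, Rny3, was at 9.66 and 11.61, and at 9.85 and 11.43 (adjusted p = 0.019).

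Small RNA genes took 11 of the 49 places in this class. These were 11 of 218 tested small RNA genes, against 0.353% of all genes tested. The kinds differed: both tested Y RNAs were in the class, but only 1 of 149 tested microRNA genes was. The median change of the microRNA genes was 0.02 in OKSM and 0.09 in OKSM+AGi. Of 67 tested snoRNA and scaRNA genes, guides of RNA modification, 8 were at least 1 log2 higher on day 4 in both arms, 3 in OKSM+AGi only and 2 in OKSM only, classes that hold 0.353%, 1% and 0.591% of all genes tested. Their median change was 0.43 in OKSM, with 50 of 67 above 0, and 0.35 in OKSM+AGi, with 56 above 0, where 44.1% and 45.4% of all genes tested were above 0. limma called 13 of the 67 higher, against 0.303% of all genes tested, among them Snord69 at 8.26 and 10.11 in OKSM and 8.98 and 10.35 in OKSM+AGi (adjusted p = 0.019). Many of these genes lie in introns of host genes, whose RNA the probes could also read. The labelling controls were higher on the same arrays, and their relation to the small RNAs was not tested.

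Protein-coding genes of this class included known pluripotency genes. Apela, which encodes a peptide hormone of ESCs, was at 7.73 on day 2 and 9.64 on day 4 in OKSM, and at 7.92 and 9.44 in OKSM+AGi. It rose by 1.71 log2 (SE 0.21, limma, adjusted p = 0.025), stayed between 9.97 and 10.78 from day 6 to day 12 in both arms, and had 5.13 in MEFs and 10.78 in ESCs. L1td1, an RNA-binding protein gene of pluripotent cells, was at 6.42 and 8.03, and at 6.97 and 8.53 (adjusted p = 0.027). Slc7a3, a transporter of cationic amino acids, was at 9.43 and 10.95, and at 9.79 and 11.51 (adjusted p = 0.027). In these 3 genes no day 4 value overlapped a day 2 value, and the day 12 levels stayed above both day 2 levels.

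Nr0b1, which encodes the nuclear receptor DAX1 of naive pluripotent cells, was at 6.33 and 7.98 in OKSM, and at 5.85 and 8.54 in OKSM+AGi. Its change did not pass the limma test (adjusted p = 0.16). It stood at 9.96 in OKSM and 12.00 in OKSM+AGi on day 12, against 12.46 in ESCs. Elmod1, a GTPase-activating protein gene, was at 6.91 and 9.47, and at 7.80 and 10.10, and passed the test (adjusted p = 0.027). On day 12 Elmod1 stood at 6.16 and 6.33, below both day 2 values, so its high level did not last.

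Some genes of this class moved further with AGi, Nefl by the wider margin of the 2 given here. Nefl, which encodes the light neurofilament chain, was at 6.29 on day 2 and 7.76 on day 4 in OKSM, and at 6.47 and 10.80 in OKSM+AGi. The day 4 array with AGi was the highest of the 4, and over days 6 to 12 Nefl was higher with AGi by 2.92 log2 (SE 0.23, limma, adjusted p = 0.001). Bex1, an X-linked gene of pluripotent and neural cells, was at 6.64 and 8.09, and at 8.46 and 10.59. Its day 2 level with AGi already lay above the day 4 level without.

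**Figure D2:**
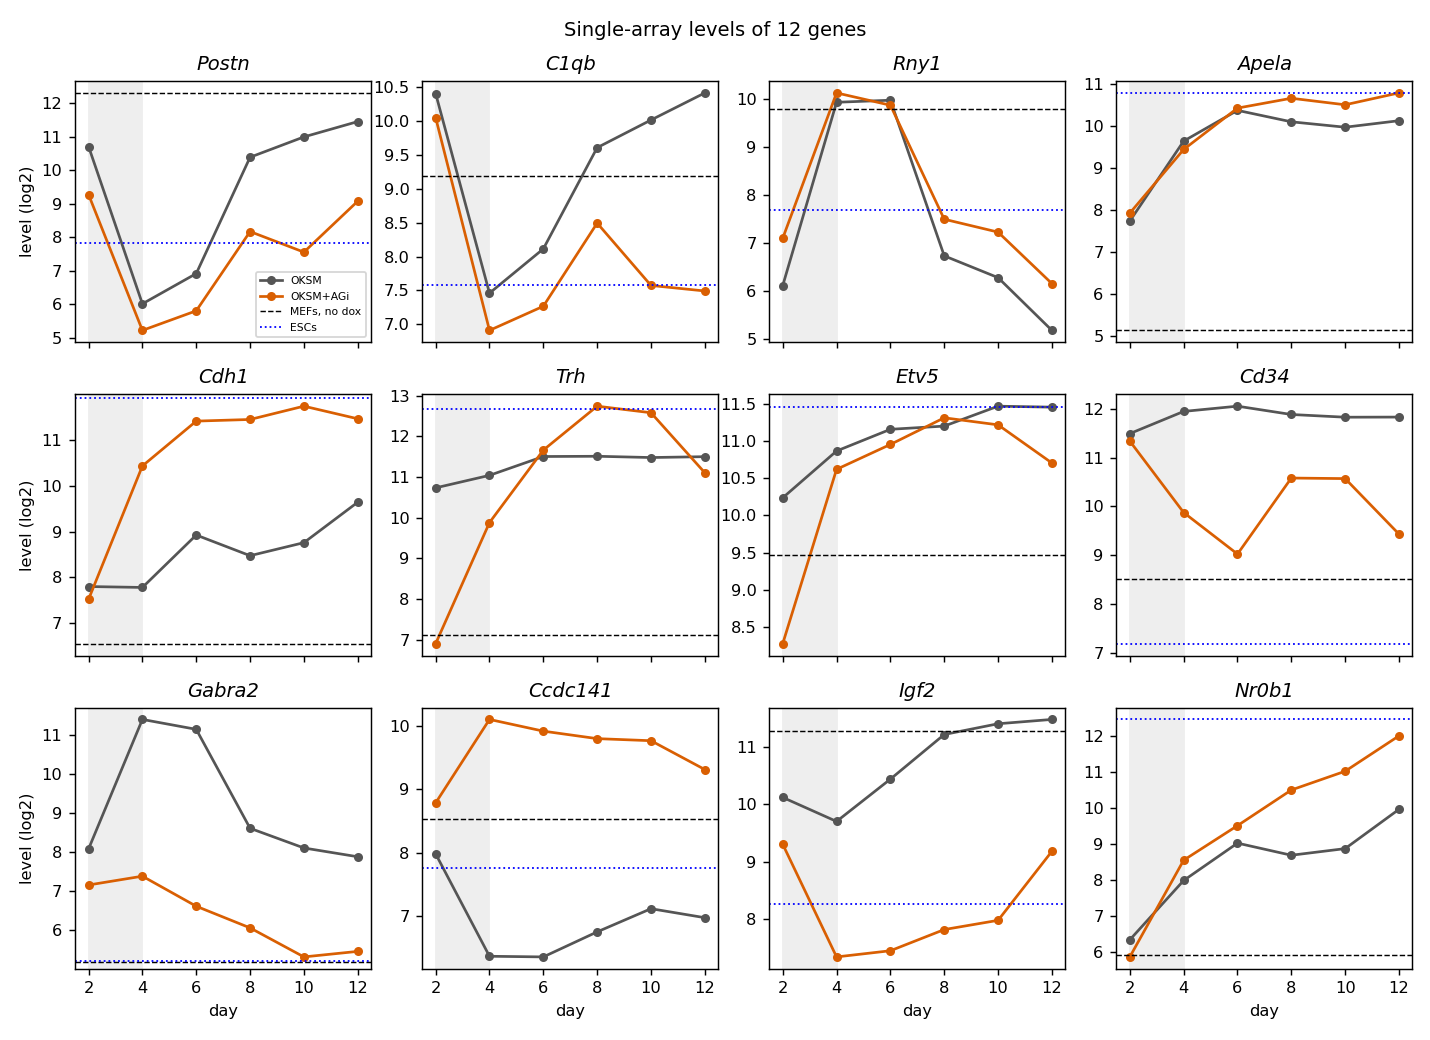
Levels (log2, 1 array per point) of 12 genes against day in OKSM (grey) and OKSM+AGi (orange), with uninduced MEFs (dashed) and ESCs (dotted); the shaded band spans days 2 to 4. Postn, C1qb and Rny1 differ on days 4 and 6 from days 2 and 8 in both arms, Apela holds its day 4 level, and Cdh1 parts the arms from day 4.

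Genes at least 1 log2 higher in OKSM+AGi only included junction genes of epithelia. Cdh1, which encodes E-cadherin, was at 7.80 on day 2 and 7.78 on day 4 in OKSM, and at 7.53 and 10.43 in OKSM+AGi. Only the day 4 array with AGi was high, 7.47-fold above its day 2 value. From day 6 to day 12 Cdh1 lay between 11.40 and 11.73 with AGi and between 8.47 and 9.64 without, a difference of 2.56 log2 (SE 0.20, limma over 4 days, adjusted p = 0.001). Uninduced MEFs had 6.56 and ESCs 11.91.

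Epcam, an epithelial adhesion molecule, was at 5.69 and 6.03 in OKSM, and at 5.54 and 8.30 in OKSM+AGi. It was higher with AGi by 3.07 log2 on days 6 to 12 (SE 0.30, adjusted p = 0.0017). Of the 39 tested genes of the epithelial list, 8 were in this class, against 1% of all genes tested. Besides Cdh1 and Epcam these were the tight junction gene Ocln, the desmosome gene Dsp, the transcription factor Grhl3, the membrane protease St14 and its inhibitors Spint1 and Spint2, with changes of 1.14 to 1.59 with AGi and -0.16 to 0.61 without. All 8 were higher with AGi on days 6 to 12 (limma, adjusted p of 0.0053 or lower), as were 29 of the 39 genes of the list and 19.7% of all genes tested.

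The rest of the epithelial list moved little or differently. Its median change was 0.10 in OKSM and 0.32 in OKSM+AGi. Krt19, a keratin of simple epithelia, was at 8.82 and 10.41 in OKSM, and at 8.28 and 8.12 in OKSM+AGi. Ehf, an epithelial transcription factor, was higher in both arms, by 1.48 and 1.46 (limma, adjusted p = 0.16). It was the 1 gene of the list called lower with AGi on days 6 to 12 (-2.09 log2, limma, adjusted p = 0.0017). Perp, a desmosomal p53 target, was higher in both arms by 1.26 and 0.98 and passed the limma test over both (adjusted p = 0.037). Cdh3, which encodes P-cadherin, was lower in both arms, by -1.17 and -1.59 (adjusted p = 0.099). Among the transcription factors that repress Cdh1, Snai2 was at 10.68 and 10.84 in OKSM, and at 9.97 and 9.15 in OKSM+AGi. Zeb1 was at 8.13 and 7.96, and at 7.78 and 7.42. Neither changed by 1 log2 in this step.

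The 250 bases before the start of Epcam (plus strand, chr17:87635729-87635978), Grhl3 (minus strand, chr4:135573633-135573882) and Spint2 (minus strand, chr7:29281978-29282227) are shown because these 3 genes, of the epithelial list and higher on day 4 with AGi only, hold the letters searched. Dsp and Spint1, of the same list and class, held no match, and Ocln held none in 1 of its windows and 2 in the other. Cdh1 and St14, also of this list and class, had no window at hand and were not searched. They are from RefSeq, build GRCm38.p6, and capitals mark CACCTG on either strand, the E-box letters that Snail and Zeb factors are known to bind.
Epcam: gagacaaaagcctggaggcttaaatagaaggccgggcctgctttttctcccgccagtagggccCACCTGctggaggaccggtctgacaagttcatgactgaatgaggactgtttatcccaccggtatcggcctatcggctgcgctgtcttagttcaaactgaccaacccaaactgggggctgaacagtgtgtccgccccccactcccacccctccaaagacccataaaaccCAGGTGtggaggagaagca
Grhl3: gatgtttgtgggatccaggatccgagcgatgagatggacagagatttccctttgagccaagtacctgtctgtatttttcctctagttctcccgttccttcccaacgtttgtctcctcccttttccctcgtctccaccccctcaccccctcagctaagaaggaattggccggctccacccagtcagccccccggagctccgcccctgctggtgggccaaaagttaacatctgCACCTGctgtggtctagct
Spint2: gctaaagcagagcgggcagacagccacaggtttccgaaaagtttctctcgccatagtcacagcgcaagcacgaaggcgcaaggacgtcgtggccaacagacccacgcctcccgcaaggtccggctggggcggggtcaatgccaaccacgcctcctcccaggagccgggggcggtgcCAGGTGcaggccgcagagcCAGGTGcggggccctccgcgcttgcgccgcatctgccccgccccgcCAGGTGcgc
Epcam held 2 matches, Grhl3 1 and Spint2 3. CACCTG occurred in 17 of the 24 epithelial-list genes with a window (70.8%), against 19.4% of all 27025 genes of the table. Among the classes it occurred in 29 of 106 genes higher with AGi only (27.4%) and in 19 of 63 higher in OKSM only (30.2%). It was in 5 of 60 genes lower in both arms (8.33%) and in 2 of 21 higher in both (9.52%). Of genes lower in 1 arm only, 18.4% with AGi and 13.8% in OKSM held it. The windows were not matched on base composition, and a match says nothing of binding in these cells.

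Genes of the pluripotency list moved in both arms or with AGi only. Of its 38 tested genes, 4 were higher in both arms, 8 in OKSM+AGi only and 1, Fbxo15, was lower in OKSM+AGi only, against 0.353%, 1% and 1.24% of all genes tested. The median change was 0.22 in OKSM and 0.43 in OKSM+AGi. Sall4, a zinc finger factor of ESCs, was at 6.74 and 6.71 in OKSM, and at 6.54 and 8.16 in OKSM+AGi. Nanog was at 6.24 and 7.08, and at 6.36 and 7.76. For Sall4 only the day 4 array with AGi was high, while Nanog was above its day 2 levels in both arms.

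Other core genes were still near their MEF level on day 4. Zfp42, also known as Rex1, was at 5.35 and 5.36 in OKSM, and at 5.32 and 5.37 in OKSM+AGi. Esrrb was at 6.39 and 6.19, and at 6.01 and 6.09. Both lay within 0.5 log2 of the MEF array, which had 5.39 and 6.31. On days 6 to 12 Zfp42 was higher with AGi by 2.29 log2 and Esrrb by 1.14 (limma, adjusted p = 0.017 and 0.025). Another transcription factor of the naive state, Tfcp2l1, was at 6.71 and 6.90 in OKSM, and at 8.60 and 7.83 in OKSM+AGi, so its early level with AGi was higher on day 2 than on day 4.

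The class included 2 genes of the Wnt target list. Lef1, a beta-catenin partner and Wnt target, was at 8.06 and 8.33 in OKSM, and at 8.32 and 9.91 in OKSM+AGi. Notum, a secreted Wnt inhibitor, was at 6.63 and 6.40, and at 6.35 and 7.77. Axin2, the usual feedback target, was at 6.88 and 6.60, and at 7.23 and 7.62, and stayed under 1 log2. Of the 21 tested genes of the Wnt list, 2 were higher in OKSM+AGi only and 1 in OKSM only, against 1% and 0.591% of all genes tested, with medians of -0.05 and 0.18.

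Some genes entered this class because they started low with AGi on day 2. Trh, which encodes thyrotropin-releasing hormone, was at 10.73 and 11.04 in OKSM, and at 6.91 and 9.88 in OKSM+AGi. Its day 4 value with AGi still lay below both OKSM values, and on days 6 to 12 the arms were not called different (0.52 log2, SE 0.28, limma, adjusted p = 0.19). Etv5, an ETS factor downstream of FGF and ERK signalling, was at 10.24 and 10.86, and at 8.28 and 10.62. Etv4 was at 7.80 and 8.14, and at 6.46 and 8.55, and the ERK inhibitor gene Spry4 at 9.92 and 10.82, and at 8.98 and 10.75.

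In the last 3 genes the day 2 array with AGi was the lowest of the 4, and the day 4 arrays lay within 0.5 log2 of each other. Of the 139 genes of the class, 8 were at least 1 log2 lower with AGi than without on day 2, and 64 were at least 1 log2 higher with AGi on day 4, against 91 and 140 of all genes tested. These gaps share arrays with the rule and are a description.

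The other large changes of the class came from genes of varied kinds. Cnpy1, which encodes a regulator of FGF signalling, was at 5.96 and 6.54 in OKSM, and at 6.16 and 9.11 in OKSM+AGi. Peg10, a paternally expressed imprinted gene, was at 8.14 and 8.66, and at 8.22 and 10.60. Slc7a11, the cystine transporter, was at 6.75 and 5.87, and at 6.11 and 8.04. In each of the 3 genes the day 4 array with AGi was the highest of the 4. Slc7a11 was not called different between the arms on days 6 to 12 (-0.57 log2, adjusted p = 0.17), whereas Cnpy1 and Peg10 were higher with AGi by 3.25 and 1.65 log2 (limma, adjusted p = 0.00053 and 0.0065).

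Genes at least 1 log2 lower in OKSM+AGi only included many stromal products. Thy1, the surface marker lost early in reprogramming, was at 10.83 on day 2 and 10.36 on day 4 in OKSM, and at 10.63 and 8.84 in OKSM+AGi. Only the day 4 array with AGi was low. On days 8 to 12 Thy1 stood between 10.39 and 10.90 with AGi, near its day 2 level again, and on days 6 to 12 its difference, AGi minus OKSM, was -0.93 log2 (SE 0.18, limma, adjusted p = 0.01).

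Of 41 tested fibroblast genes, 10 were lower in OKSM+AGi only, 4 in both arms, 1 in OKSM only and 1 was higher in OKSM+AGi only. These classes hold 1.24%, 0.599%, 0.303% and 1% of all genes tested. The median was -0.24 in OKSM and -0.71 in OKSM+AGi, and limma over both arms called 2 of the 41 lower, against 0.397% of all. Dcn, which encodes the proteoglycan decorin, was at 9.70 and 9.01 in OKSM, and at 8.37 and 6.68 in OKSM+AGi. Lox, the crosslinking enzyme of collagen and elastin, was at 12.29 and 11.98, and at 12.10 and 10.26. For both, the day 4 array with AGi was the lowest of the 4.

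Of 21 tested collagen chain genes, 5 were lower in OKSM+AGi only and 4 in both arms, against 1.24% and 0.599% of all genes tested, with medians of -0.37 and -0.83. limma called 3 of the 21 lower. Col3a1 was at 9.76 and 8.53, and at 9.42 and 7.81, and Col1a1 at 11.75 and 11.18, and at 11.74 and 10.70. No day 4 value of these 2 genes overlapped a day 2 value. Of 18 matrix proteases and inhibitors, 4 were lower in OKSM+AGi only (1.24% of all), among them the aggrecanase Adamts5 at 10.11 and 9.65, and at 9.41 and 7.46.

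Of 33 tested contractile and TGF-beta target genes, 16 had a positive change in OKSM and a negative one with AGi, as did 16% of all genes tested. The other 17 had the same sign in both arms. The medians were 0.11 in OKSM and -0.48 with AGi. limma over both arms called 0 of the 33, with 9 at an unadjusted p under 0.05, and the difference between the arms was not tested. Actg2, a smooth muscle actin, was at 11.84 and 12.29 in OKSM, and at 11.51 and 10.28 in OKSM+AGi. Tagln, an actin-binding protein of smooth muscle, was at 11.70 and 11.82, and at 10.98 and 9.70. Edn1, the vasoconstrictor endothelin, belonged to the genes higher in OKSM only, at 9.73 and 10.94 against 10.06 and 9.26. In all 3 genes the day 4 arrays of the arms lay further apart than the day 2 arrays, and all 3 were lower with AGi on days 6 to 12 (limma, adjusted p of 0.0027 or lower).

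Genes with the widest gap between the arms in this class were Tcim, Cd34 and Emx2. Cd34, a sialomucin of stromal and blood progenitors, was at 11.49 and 11.95 in OKSM, and at 11.34 and 9.88 in OKSM+AGi, with 8.52 in uninduced MEFs. Emx2, a homeobox gene, was at 9.20 and 9.52, and at 9.18 and 7.62. Both were level between the arms on day 2 and low with AGi on day 4, and both were lower with AGi on days 6 to 12, with differences of -1.997 and -1.84 log2 (limma, adjusted p = 0.0053 and 0.00076). Tcim, a Wnt-related gene, differed: it was at 6.54 and 6.68 in OKSM, and at 8.44 and 6.53 in OKSM+AGi, with its high value on day 2, and was higher with AGi by 1.87 log2 on days 6 to 12 (adjusted p = 0.039).

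The imprinted growth factor Igf2 was at 10.12 and 9.70 in OKSM, and at 9.30 and 7.33 in OKSM+AGi. The day 4 array with AGi was the lowest, and on days 6 to 12 the difference was -3.04 log2, lower with AGi (SE 0.20, limma, adjusted p = 0.00069).

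Genes at least 1 log2 higher in OKSM only were led by Gabra2, which encodes a subunit of the GABA-A receptor. It was at 8.08 on day 2 and 11.40 on day 4 in OKSM, 9.99-fold higher, and at 7.16 and 7.38 in OKSM+AGi. It stood at 11.15 on day 6, returned to 8.61 on day 8 in OKSM, and had 5.19 in MEFs. Only days 4 and 6 of OKSM were that high. Over days 6 to 12 its difference, AGi minus OKSM, was -3.08 log2 (SE 0.35, limma, adjusted p = 0.0023).

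Epas1, which encodes the hypoxia factor HIF2-alpha, was at 9.44 and 11.30 in OKSM, and at 8.06 and 8.10 in OKSM+AGi. Gjb2, which encodes connexin 26, was at 7.65 and 9.04, and at 6.77 and 6.40, and Ngfr, the low-affinity receptor for nerve growth factor, at 7.72 and 9.56, and at 6.75 and 7.08. In each of the 3 the day 4 array of OKSM was the highest of the 4. Uninduced MEFs had 11.49 for Gjb2, above all 4 arrays, and 8.11 for Epas1. BMP-related genes were present too: of 17 tested, 3 were higher in OKSM only (0.591% of all), among them the BMP target Id4 at 7.94 and 9.33, and at 7.34 and 7.89. Id2 was higher with AGi only, at 11.10 and 12.01, and at 9.93 and 12.18, and Id1 in both arms. The median of the 17 was 0.25 in both arms.

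Of the 42 genes lower in OKSM only, 35 were lower by at least 0.5 log2 with AGi too, and their median change there was -0.76. They included the macrophage genes Mpeg1, Ctss, Csf1r, Fcgr3 and Itgam. Mpeg1, a perforin of macrophages, was at 7.39 and 5.45 in OKSM, and at 6.62 and 5.76 in OKSM+AGi. The day 4 levels of the arms were close and the day 2 levels were not. Avil, which encodes the actin regulator advillin, was an exception: it was at 9.80 and 8.51 in OKSM, and at 10.08 and 10.73 in OKSM+AGi, and was higher with AGi by 1.85 log2 on days 6 to 12 (SE 0.48, limma, adjusted p = 0.026).

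Ccdc141, which encodes a coiled-coil protein of migrating neurons and muscle, was the 1 gene (0.00721% of those tested) past the size in opposite directions. It was at 7.98 on day 2 and 6.37 on day 4 in OKSM, and at 8.79 and 10.10 in OKSM+AGi. On days 6 to 12 it lay between 6.36 and 7.12 in OKSM and between 9.31 and 9.91 in OKSM+AGi (limma, 2.89 log2, SE 0.20, adjusted p = 0.00075).

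Other lists differed in how many of their genes were below or above 0. Of all genes tested, 55.9% had a negative change in OKSM and 54.6% in OKSM+AGi. All 36 tested DNA replication genes had a negative change in OKSM, with a median of -0.26, while 18 of the 36 were negative in OKSM+AGi, with a median of 0.00. For 32 mitosis genes the counts were 28 and 16, with medians of -0.32 and 0.00. The helicase partner gene Gins3 was at 9.10 and 8.50 in OKSM, and at 8.80 and 8.39 in OKSM+AGi. Of 21 immediate early genes, which respond to growth factors within minutes, 20 had a positive change in OKSM, with a median of 0.44, and 9 in OKSM+AGi, with a median of -0.05. Fos was at 8.61 and 9.55, and at 8.48 and 7.58. limma over both arms called 0 genes of each of these 3 lists, with 1, 1 and 3 in list order at an unadjusted p under 0.05, and the difference between the arms was not tested.

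**Figure D3:**
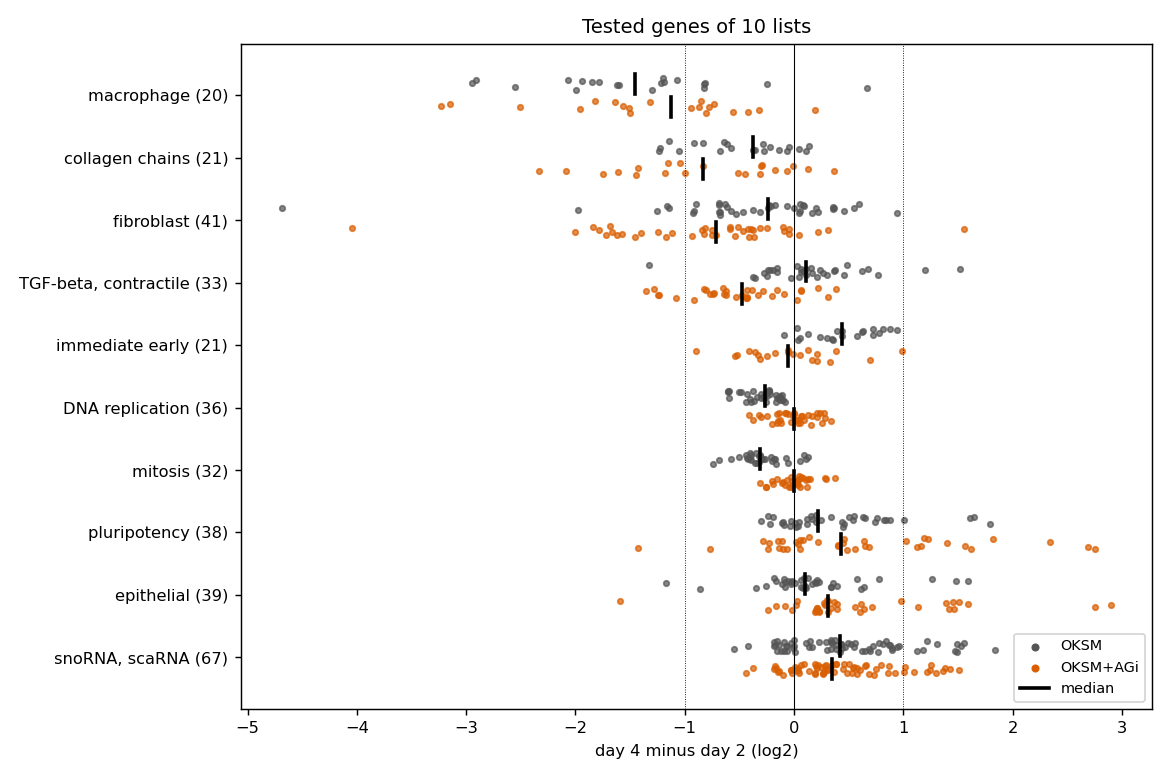
Change from day 2 to day 4 (log2) of the tested genes of 10 lists, 1 point per gene, in OKSM (grey) and OKSM+AGi (orange), with the median as a bar and the number of genes in brackets. The macrophage list has medians of -1.45 and -1.13, and the contractile, immediate early, replication and mitosis lists have medians that differ between the arms.

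Markers of other cell types that the cultures could hold were read against the 4.1% of all genes tested that passed 1 log2 in either arm. Of 11 tested endothelial genes 1 was at least 1 log2 lower, in OKSM only, and the medians were -0.001 and -0.09. Of 14 skeletal muscle genes none passed 1 log2. Of 11 adipocyte genes 1, Pparg, was higher in OKSM only. Of 17 neural and glial genes 2 were higher in both arms, 2 higher in OKSM only and 2 lower in OKSM+AGi only. Of 9 keratinocyte genes 1 was higher and of 9 cartilage and bone genes 1 was lower, both in OKSM+AGi only.

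The genes were then followed over the later days, by whether a level lay nearer to that of day 2 or of day 4, which are the values the rule used. On day 6 most genes lay nearer to their day 4 than to their day 2 level. In OKSM this held for 46 of the 49 genes higher and 81 of the 83 genes lower in both arms. In OKSM+AGi it held for 42 and 78, and for 125 of the 139 genes higher and 164 of the 172 genes lower with AGi only. Over all genes tested it held for 65.3% in OKSM and 64.5% in OKSM+AGi. On day 8, 67 of the 83 lower genes lay nearer to day 2 in OKSM and 48 in OKSM+AGi, against 46.6% and 45.4% of all genes tested. On day 10 these were 72 and 35 of the 83, against 48.8% and 48.6%.

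The median level of the 83 genes was 8.62 on day 2, 6.99 on day 4, 7.18 on day 6 and 8.59 on day 8 in OKSM. In OKSM+AGi it was 8.24, 6.68, 6.75 and 7.53. In both arms at once, days 4 and 6 lay below all of days 2, 8, 10 and 12 for 58 of the 83 (69.9%), against 957 of all genes tested (6.9%). The reverse, days 4 and 6 above all other days in both arms, held for 16 of the 49 genes higher in both arms (32.7%), against 472 of all genes tested (3.4%). The rule itself sets day 4 apart from day 2, so these shares are a description. For these genes the arrays of days 4 and 6 resembled each other and differed from those before and after, in both arms, and whether they were handled apart from the others is not given in the sources used here.

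**Figure D4:**
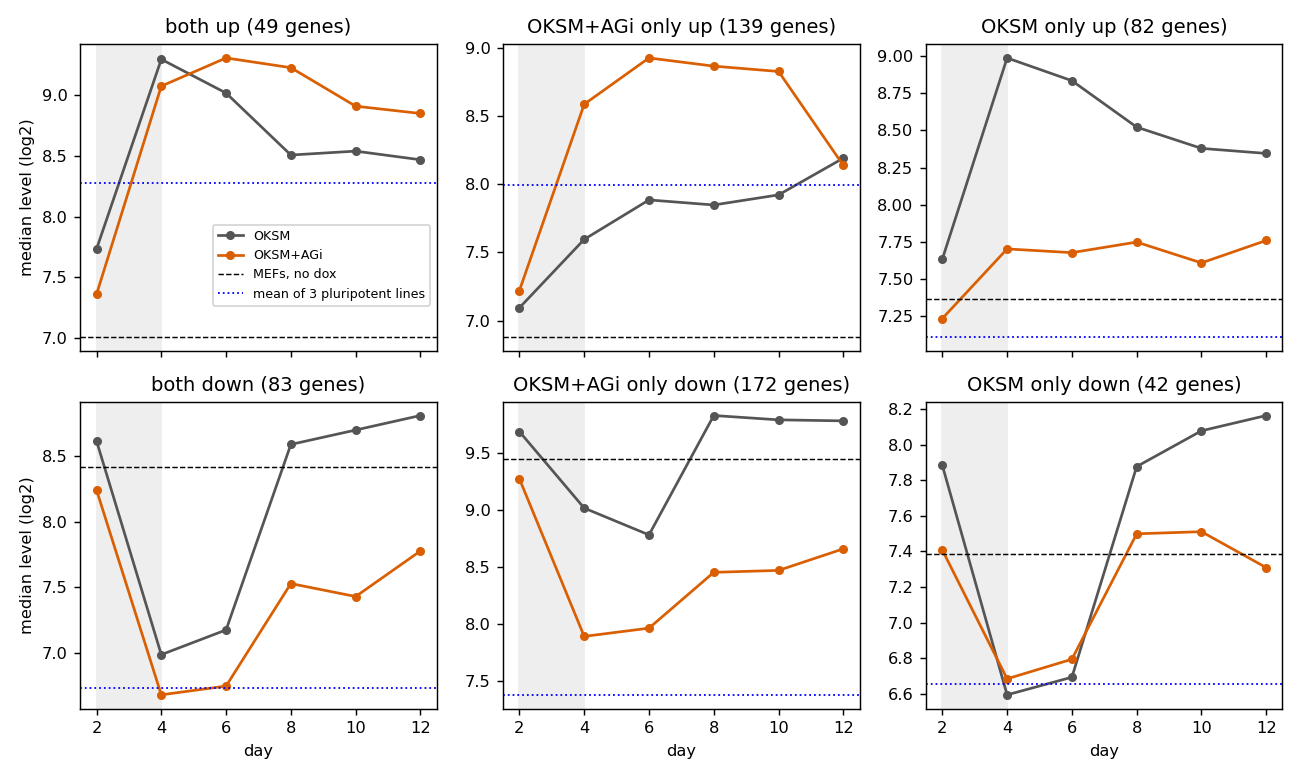
Median level (log2) of the genes of each class on each day in OKSM (grey) and OKSM+AGi (orange), with the median in uninduced MEFs (dashed) and of the mean of 3 pluripotent lines (dotted); the shaded band spans days 2 to 4. The lower genes of both arms return towards the MEF median on day 8 in OKSM, and genes higher with AGi only keep the arms apart until day 10.

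The same size rule was applied to each later step. From day 4 to day 6 it found 110 genes in any class, from day 6 to day 8 563, from day 8 to day 10 75 and from day 10 to day 12 397, against 568 from day 2 to day 4. The step from day 6 to day 8 held 129 genes higher in both arms, and the step from day 2 to day 4 was the one with the most genes lower in both arms, 83 against 0 to 32.

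Days 6 to 12 also gave a test between the arms on arrays outside the rule. The 4 days stand in for replicates of each arm. As the labels do not say whether each day had its own culture, the days may not be independent. limma with day as a block called 2728 genes higher with AGi (19.7% of those tested) and 2549 lower (18.4%). Of the 139 genes higher from day 2 to day 4 with AGi only, 71 were higher with AGi on the later days (51.1%) and 9 lower. Of the 172 genes lower with AGi only, 140 were lower (81.4%) and 8 higher. Of the 82 genes higher in OKSM only, 50 were lower with AGi (61.0%) and 8 higher. Of the 42 genes lower in OKSM only, 19 were lower with AGi and 3 higher.

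The shared classes were split by arm later as well. Of the 83 genes lower in both arms, 56 were lower with AGi on days 6 to 12 and 2 higher, with a median difference of -0.84. Of the 49 genes higher in both arms, 25 were higher with AGi and 12 lower, with a median of 0.43. The median of all genes tested was 0.003. Without day 10, the counts fell to 27 of the 83 and 13 of the 49, and without day 8 to 33 and 12; the calls over all genes fell from 5277 to 2627 and 2656.

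The classes were last set against the endpoint, as the difference between the mean of the 3 pluripotent lines and the MEF array. Of the 172 genes lower with AGi only, 127 were at least 1 log2 lower in the pluripotent lines than in MEFs (73.8%, against 12.4% of all genes tested). Of the 139 genes higher with AGi only, 68 were at least 1 log2 higher there (48.9%, against 10.6%). Of the 82 genes higher in OKSM only, 13 were higher and 25 lower in the pluripotent lines. The other classes leaned in their own direction too. Of the 83 genes lower in both arms, 53 were lower there by that size (63.9%) and 2 higher. Of the 49 genes higher in both arms, 16 were higher (32.65%) and 5 lower. Of the 42 genes lower in OKSM only, 17 were lower (40.5%) and 5 higher. These arrays have no replicate, and the shares are a description.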

How the data were processed

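RNA of 18 mouse samples (RNeasy Mini kit, DNase treatment, biotin label) was read on Affymetrix mouse gene arrays, as the labels' protocols give it. The authors deposited log2 values, summarised per probe set by RMA in Affymetrix Expression Console according to the submitters' processing notes. Software versions, the scan order and the build behind the probe sets were not at hand, so array handling could not enter as a term. Of 41345 probe sets, 190 were controls, 23521 had 1 gene symbol and 1814 several; symbols came from the platform annotation, updated through RefSeq (GRCm38.p6), and 193 kept an old symbol. Where a gene had several probe sets (1082 of 22180 genes), the one with the highest mean was kept. A gene was tested if it reached the array median on 3 or more of the 12 time-course arrays, which left 13865.

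Tests used limma 3.58.1 under R 4.3.3 (lmFit, eBayes, Benjamini-Hochberg over all genes tested, threshold 0.05). The step from day 2 to day 4 was fitted with arm and day as terms on 12 arrays (5 residual degrees of freedom), and the arms on days 6 to 12 with day as a block on 8 arrays (3 residual degrees of freedom). As no arm and day was repeated, p-values measure only the spread between these arrays, which may be technical; precision is limited by how few arrays there are. On simulated data with 200 changed genes (67, 67 and 66 per size) among 13865, the fit of the step recovered 5.97% of changes of 0.5 log2, 79.1% of 1 and 98.5% of 2, with 3 unchanged genes called. The fit of the arms recovered 53.7%, 97% and 100%, with 21 unchanged genes called. These rates hold for the simulated data and do not measure power or false calls on the arrays. There the fit of the step called 20 of the 49 genes higher in both arms and 27 of the 83 lower. All of those genes had changed by at least 1 log2 in each arm.

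The members, classes and gene lists were chosen with earlier results of these data known. Genes were named by a rule: 8 per class (by the smaller change for both arms, by the gap between arms otherwise), every gene with opposite changes, up to 4 per list by mean absolute change, and a set of key genes. Col1a1, Csf1r, Fcgr3, Itgam, Etv4, Spry4, Lox, Tagln, Ngfr, Fbxo15, Aspn, Crabp2, Gpc3, the genes at the threshold and the other epithelial genes were named after their values were seen. Lists were given no set test; counts of their genes in a class are read against the share of all genes tested in that class. Promoter windows are the first 250 bases of RefSeq's entries. Alternatives were other filters, thresholds, probe set rules, normalizations, variance models and left-out days. Plots were made in Python 3.11.15 with matplotlib 3.10.9.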

Additional observations from a re-analysis of the deposited data

Results flagged for a closer look

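Ccdc141 moved in opposite directions in the arms from day 2 to day 4, by -1.61 log2 in OKSM and 1.31 in OKSM+AGi, with 1 array per arm and day; the difference between the arms in this step was not tested. The labelling controls, which belong to no gene, were higher on day 4 than on day 2 by a mean of 0.51 log2 in OKSM and 0.56 in OKSM+AGi.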

How the results depend on the processing

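With 1 array per arm and day, class membership has no error estimate, and the fits rest on how the arms differ over days. Arms were paired by day: the fit of days 6 to 12 has day as a block, and its values with no day term are the unpaired alternative. The fit of the step pairs its days by arm. Each main count was labelled the same or moved under each alternative, so a reversal of a count was not possible. Of these labels, 125 were the same and 48 moved. For list medians 194 were the same and 26 moved, and for changes of named genes 1154 and 88. The label of a main count compares its size and not which genes are counted. The fit of the step on the 4 arrays of days 2 and 4 alone was labelled the same. It called 107 genes, and only 37 of them were among the 97 called on 12 arrays. At a size of 1.5 log2 the classes held 9 genes higher and 22 lower in both arms, 53 higher and 61 lower in OKSM+AGi only, 30 higher and 13 lower in OKSM only, and 0 opposite. At 1.5-fold they held 186, 279, 305, 543, 215, 139 and 11. Requiring the other arm to stay under 0.5 log2 left 83, 86, 50 and 7 in the single-arm classes. Day 6 in place of day 4, chosen after seeing the data, gave 79 higher in both arms and 65 lower in OKSM only, sharing 31 and 29 genes with the classes of day 4. The limma calls of the step, higher and lower, were 107 and 196 on days 2, 4 and 6 alone, 0 and 0 with no arm term (767 genes at an unadjusted p under 0.05) or at a threshold of 0.01, and ranged from 0 to 69 and from 0 to 93 when a later day was left out. Those between the arms on days 6 to 12 were 1312 and 1344 without day 8, and 1344 and 1283 without day 10. Of the genes higher in both arms, 16 were higher with AGi with no day term, 12 without day 8 and 13 without day 10. Of those lower in both arms, 25 were lower with AGi with no day term, 33 without day 8 and 27 without day 10. Of those lower in OKSM only, 12 were lower with AGi with no day term, and 7, 4 and 12 when day 8, 10 or 12 was left out. Changes of named genes past 1 log2 were counted once per alternative (quantile normalization again, median of probe sets, centring on the median change). Of these 423 counts, 416 stayed past 1 log2. The probe set alternative cannot move a gene with 1 probe set, and only 1082 of 22180 genes had more.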
